A study of Mus musculus with 12 samples.

Results

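The probes mmu-miR-219, mmu-miR-338-3p, mmu-miR-338-5p, mmu-miR-138 and mmu-miR-32, which read miRNAs linked to oligodendrocytes, were taken by name from the raw nCounter table. They are 5 of its 599 miRNA probes, 566 of them for mouse and 33 for viral miRNAs. The nCounter assay joins a tag to each mature miRNA by ligation and counts fluorescent barcodes, so a value is a barcode count for 1 probe in 1 lane. All samples, the controls included, were isolated optic nerves of male C57Bl/6 mice. The nerves were under oxygen glucose deprivation (OGD) with the drug MS-275 (OGD+MS-275), under OGD with CX-4945 (OGD+CX-4945), under OGD alone (OGD) or untreated (Control), with 3 samples in each of the 4 groups. MS-275, or entinostat, is an inhibitor of class I histone deacetylases, and CX-4945, or silmitasertib, of casein kinase 2. The sources used here do not give ages, doses, times, the order of drug and OGD, or how many nerves or animals stand behind a sample. The p-values therefore measure the spread between these samples, which may be technical.

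The optic nerve is a white-matter tract whose axons are wrapped in myelin by oligodendrocytes. As an oligodendrocyte precursor stops dividing and matures, miR-219 and miR-338 accumulate. They lower transcripts that hold the cell in the precursor state, among them Pdgfra, the receptor for platelet-derived growth factor, and the transcription factors Sox6 and Hes5. miR-138 acts with them in the early phase of differentiation. miR-32 is known in oligodendrocytes for lowering Slc45a3, a membrane transporter tied to their lipid metabolism. Each mature miRNA finds its targets mainly through its seed, and 1 hairpin can give a mature strand from each of its arms, as the precursor of miR-338 does.

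The mature sequences are shown because the 5 probes read 4 miRNAs and the opposite strand of 1 of them. They are RefSeq sequences of build GRCm38.p6, printed 5′ to 3′ with the seed, bases 2 to 8, in capitals. The probe names miR-219, miR-138 and miR-32 were matched to RefSeq's miR-219a-5p, miR-138-5p and miR-32-5p by hand.
miR-219a-5p: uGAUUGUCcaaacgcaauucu
miR-338-3p: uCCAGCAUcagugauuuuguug
miR-338-5p: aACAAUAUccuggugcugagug
miR-138-5p: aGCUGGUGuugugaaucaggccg
miR-32-5p: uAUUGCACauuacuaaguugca

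The seeds of miR-219, miR-338-3p, miR-338-5p and miR-138 each belonged to 1 mature miRNA of the RefSeq table, so the strands of miR-338 have different seeds. The seed of miR-32 was shared with 5 other miRNAs on the panel, miR-25, miR-92a, miR-92b, miR-363 and miR-367. miR-25 and miR-92b, the 2 of them that were tested, are shown for the bases they share with miR-32.
miR-25-3p: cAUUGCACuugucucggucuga
miR-92b-3p: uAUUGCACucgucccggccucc

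Spans were searched among protein-coding and long noncoding RNA genes only. miR-219a-5p is encoded at chr2:29845689-29845709, within the span of Cercam, and at chr17:34025052-34025072, within no such gene, both on the minus strand. miR-138-5p is encoded at chr8:94324312-94324334, within the span of Nup93, and at chr9:122682898-122682920, within none, both on the plus strand. miR-32-5p lies at chr4:56895272-56895293 on the minus strand, within the span of Tmem245. A probe for a mature strand cannot tell apart the copies of its gene. Both strands of miR-338 come from 1 gene, Mir338, within the span of Aatk, which encodes a kinase. miR-338-3p is at chr11:120014781-120014802 and miR-338-5p at chr11:120014816-120014837, on the minus strand. The hairpin of Mir338 at chr11:120014765-120014862 is printed to show both strands, with the 5p strand as the first run of capitals and the 3p strand as the second.
Mir338 hairpin: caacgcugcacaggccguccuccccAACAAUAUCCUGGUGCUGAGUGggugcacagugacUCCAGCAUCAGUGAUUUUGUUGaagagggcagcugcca
Set against each other without gaps, the strands could pair at 14 of 22 positions, G with U included.

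The total miRNA count ran from 338367 to 465973 per lane in OGD+MS-275, from 359306 to 542933 in OGD+CX-4945, from 255154 to 416579 in OGD and from 302344 to 374790 in Control. The background limit of a lane, set 2 SD above the average of its 8 negative controls, lay between 32.0 and 60.6 counts. 217 probes, all 5 of the oligodendrocyte-linked ones among them, exceeded it in at least 3 of the 12 lanes and were tested. OGD replicate 2 had the lowest total and the fewest mouse probes above the limit, 154, against up to 224 in the other lanes. The 3 positive ligation controls, synthetic templates that report how well tags were joined, had geometric means of 2914 to 3155 counts in OGD+MS-275, 1667 to 3787 in OGD+CX-4945, 1109 to 2423 in OGD and 1386 to 2369 in Control.

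The 5 probes covered a wide range of counts. miR-338-3p had 12699 to 32812 raw counts and ranked 4th by mean count among the 217 tested probes, and it made up 4.79% to 6.04% of a lane's miRNA count. miR-219 had 6328 to 17022 counts, ranked 10th and made up 1.95% to 3.94%. Their lowest values were 237 and 118 times the background limit. miR-138 ranked 102nd with 131 to 460 counts, miR-32 ranked 163rd with 51 to 153 counts and miR-338-5p ranked 173rd with 37 to 114 counts. Probes differ in efficiency, so these ranks order barcode counts and not molecules.

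The last 2 stood near the background. miR-338-5p exceeded the limit in 11 of 12 lanes and lay between 0.689 and 2.35 times it. The exception was OGD replicate 2, with 37 counts against a limit of 53.7. miR-32 also exceeded the limit in 11 of 12 lanes, with 55 counts against 60.6 in OGD+CX-4945 replicate 1. The counting error of miR-338-5p alone was 0.19 on the log2 scale, that of miR-32 was 0.17 and that of miR-219 was 0.014. miR-338-5p was 1.84 to 2.35 times the limit in the OGD+MS-275 lanes, 1.01 to 2.01 times in OGD+CX-4945, 0.689 to 1.35 times in OGD and 1.16 to 1.54 times in Control.

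**Figure D1:**
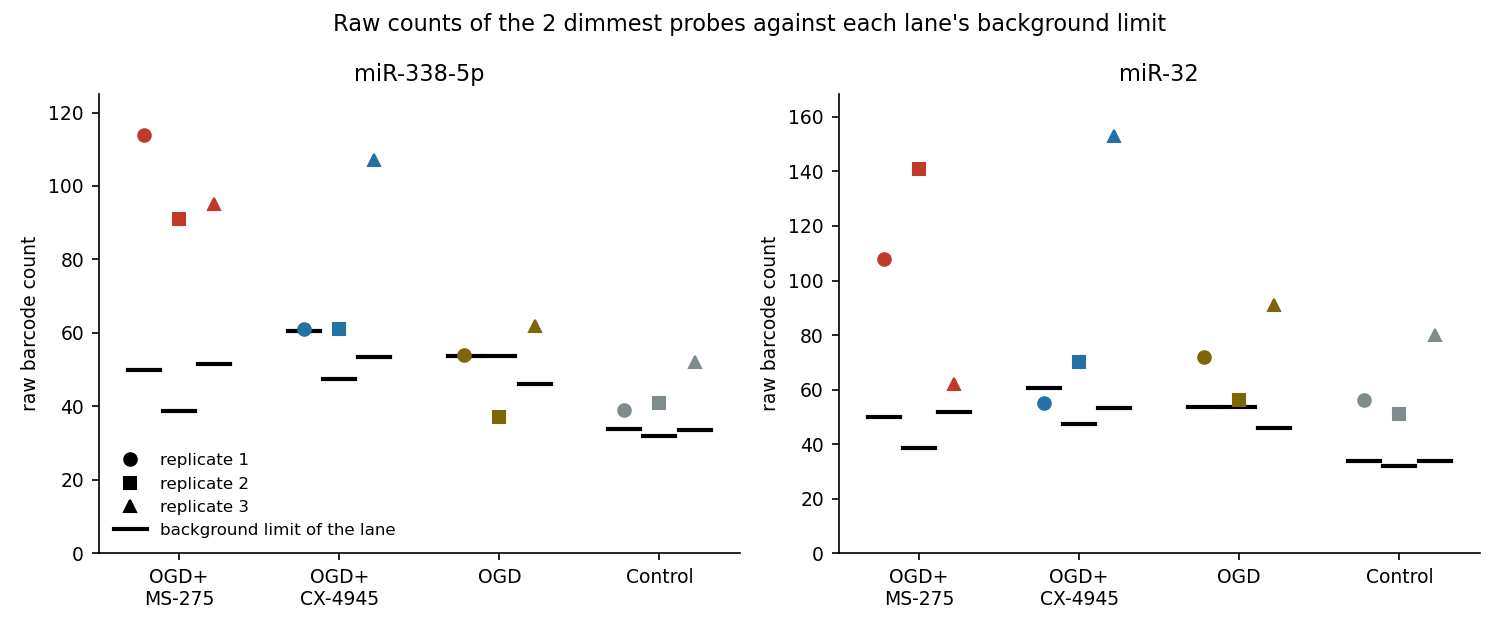
Raw barcode counts (vertical axis) of miR-338-5p and miR-32 in each lane by group, with symbols for replicates and a black bar for the background limit of that lane. miR-338-5p lies below its bar in OGD replicate 2 and miR-32 below its bar in OGD+CX-4945 replicate 1, while the 3 OGD+MS-275 lanes of miR-338-5p lie between 91 and 114 counts.

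In none of the 4 comparisons did any of the 5 miRNAs pass the threshold of edgeR's quasi-likelihood test, an adjusted p of 0.05 after Benjamini-Hochberg adjustment over the 217 probes. In OGD+MS-275 against OGD, 0 of 5 passed, where 0.461% of all tested probes did. 0 of 5 passed in OGD+MS-275 against OGD+CX-4945, in OGD+CX-4945 against OGD and in OGD against Control, where 0% of all tested probes did. The test of any difference among the 4 groups also called 0 of 5, with 0.461% of all tested probes called. limma-voom called 0 of 5 in each of these, and so did DESeq2, except that in OGD+MS-275 against OGD it gave an adjusted p to 2 of the 5 only, miR-219 and miR-338-3p. It gave miR-338-5p none there, with a p of 0.00869 before adjustment. At an unadjusted p under 0.05, miR-338-5p passed in both OGD+MS-275 comparisons and in the 4-group test, and no other of the 5 passed in any of these. That lower bar was passed by 20.7% of all tested probes in OGD+MS-275 against OGD, 4.15% in OGD+MS-275 against OGD+CX-4945, 7.37% in OGD+CX-4945 against OGD, 5.53% in OGD against Control and 15.2% in the 4-group test. The 95% intervals of all 5 fold changes lay inside a doubling or halving in each of the 4 comparisons. The OGD lanes enter both drug comparisons and the comparison with Control, so these share samples.

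**Figure D2:**
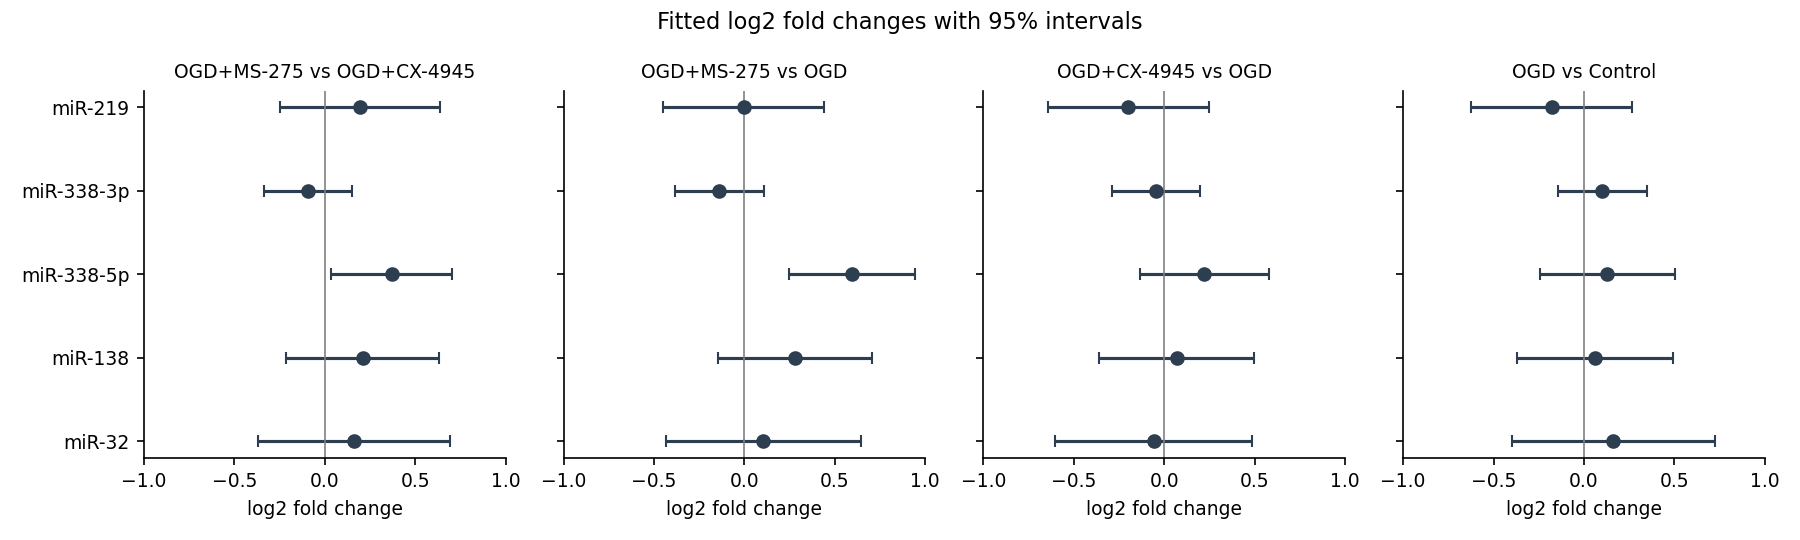
Fitted log2 fold changes (horizontal axis) with 95% intervals for the 5 probes, 1 panel per comparison, the first-named group over the second. Every interval spans 0 except those of miR-338-5p in the 2 OGD+MS-275 panels, and every interval lies between -1 and 1.

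mmu-miR-219 had normalised counts, scaled for lane depth with TMM factors, of 8879, 14304 and 9947 in the OGD+MS-275 lanes. It had 7629, 9288 and 12022 in OGD+CX-4945, 9795, 9902 and 13526 in OGD, and 10144, 12270 and 15144 in Control. All 4 groups overlapped, and each spread widely around its mean. The means were 11044 ± 2874 in OGD+MS-275, 9646 ± 2218 in OGD+CX-4945, 11074 ± 2123 in OGD and 12519 ± 2509 in Control (SD, n = 3 each). Control was highest and OGD+CX-4945 lowest, and no 2 neighbours in that order differed by more than the larger of their SDs. The log2 fold change was -0.00 for OGD+MS-275 against OGD, with a 95% interval of -0.45 to 0.44. For OGD+CX-4945 against OGD it was -0.20 (-0.64 to 0.25), and for OGD against Control it was -0.18 (-0.62 to 0.27). In whole nerves, fewer cells of a type and less RNA per cell cannot be told apart.

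mmu-miR-338-3p, the abundant strand of its hairpin, had 18067, 21450 and 17439 normalised counts in OGD+MS-275, 20442, 17170 and 23173 in OGD+CX-4945, 21806, 19872 and 21031 in OGD, and 19248, 19621 and 19560 in Control. The Control lanes lay close together, and the lanes of either drug group spread more widely than those of OGD. The means were 18985 ± 2157 in OGD+MS-275, 20261 ± 3006 in OGD+CX-4945, 20903 ± 973 in OGD and 19476 ± 200 in Control (SD, n = 3 each). All 3 OGD lanes were above all 3 Control lanes, as was so in that direction for 4.61% of all tested probes, and the log2 fold change was 0.10 (95% interval -0.14 to 0.35). The adjusted p from edgeR's test was 0.937. Both drug groups overlapped OGD, with log2 fold changes of -0.14 (-0.38 to 0.11) for OGD+MS-275 and -0.04 (-0.29 to 0.20) for OGD+CX-4945. OGD had the highest mean and OGD+MS-275 the lowest, and no neighbours in the order differed by more than the larger SD.

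mmu-miR-338-5p, the scarce strand, had 85.4, 79.2 and 97.0 normalised counts in OGD+MS-275 and 64.4, 60.8 and 75.6 in OGD+CX-4945. In OGD it had 49.8, 57.9 and 65.8, and in Control 50.8, 54.0 and 53.3. Every OGD+MS-275 lane was above every lane of the other groups, while OGD+CX-4945 overlapped OGD and OGD overlapped Control. In OGD+CX-4945 against OGD, none of the 5 probes had groups that did not overlap, against 6.45% of all tested probes. The means were 87.2 ± 9.03 in OGD+MS-275, 66.9 ± 7.69 in OGD+CX-4945, 57.8 ± 7.99 in OGD and 52.7 ± 1.68 in Control (SD, n = 3 each). OGD+MS-275 exceeded OGD+CX-4945, and OGD+CX-4945 exceeded OGD, by more than the larger SD, and OGD and Control did not differ by that much. Of all tested probes, 13.4% had every OGD+MS-275 lane above every OGD lane, and 5.07% had every OGD+MS-275 lane above every OGD+CX-4945 lane. The share against Control, or against all other groups at once, was not counted.

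The fitted log2 fold change of miR-338-5p for OGD+MS-275 against OGD was 0.59 (95% interval 0.24 to 0.94), a 1.51-fold difference. Its p of 0.00242 before adjustment became 0.149 after Benjamini-Hochberg adjustment in edgeR, which missed the threshold. Against OGD+CX-4945 the log2 fold change was 0.37 (0.04 to 0.71), with an edgeR adjusted p of 0.920. OGD+CX-4945 against OGD gave 0.22 (-0.13 to 0.58), and OGD against Control 0.13 (-0.25 to 0.50).

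The lanes of these groups differed in the ligation controls given above, and every OGD+MS-275 lane had a higher ligation count than every OGD and Control lane. With the log2 ligation count as a covariate, the log2 fold change of miR-338-5p for OGD+MS-275 against OGD was 0.49. With lanes scaled by the ligation controls it was 0.16, while the median over all tested probes moved to -0.42. miR-338-5p stood 0.58 above that median, but scaling moves all probes of a lane alike. That distance is nearly kept by construction and does not test the difference. The negative controls averaged 15.6 to 21.4 counts in the OGD+MS-275 lanes and 19.6 to 23.8 in the OGD+CX-4945 lanes. They averaged 18.0 to 26.3 in the OGD lanes and 14.6 to 15.5 in the Control lanes. Over 26 alternative settings the log2 fold change of miR-338-5p for OGD+MS-275 against OGD ran from 0.16 to 1.60. It was above 0 in all 26, and 1 setting brought it past the threshold. That setting, a replicate block by numbers in the sample titles, is described in the last section.

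mmu-miR-138, which acts early in oligodendrocyte differentiation, had 345, 277 and 227 normalised counts in OGD+MS-275, 274.7, 267 and 195 in OGD+CX-4945, 279, 205 and 213 in OGD, and 263, 186 and 222 in Control. The 4 groups overlapped, and their means kept the order of miR-338-5p. They were 283 ± 59.2 in OGD+MS-275, 246 ± 44.0 in OGD+CX-4945, 232 ± 40.7 in OGD and 224 ± 38.7 in Control (SD, n = 3 each). No neighbouring means differed by more than the larger SD. The log2 fold change for OGD+MS-275 against OGD was 0.28 (95% interval -0.15 to 0.71), with an edgeR adjusted p of 0.413. For OGD against Control it was 0.06 (-0.37 to 0.49).

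mmu-miR-32 had 80.9, 123 and 63.3 normalised counts in OGD+MS-275, 58.1, 69.8 and 108 in OGD+CX-4945, 66.4, 87.6 and 96.5 in OGD, and 72.9, 67.2 and 82.0 in Control. In each drug group a single lane was above every OGD and Control lane and the others were not. The means were 89.0 ± 30.5 in OGD+MS-275, 78.6 ± 26.1 in OGD+CX-4945, 83.5 ± 15.5 in OGD and 74.0 ± 7.46 in Control (SD, n = 3 each), and no neighbours in their order differed by more than the larger SD. The log2 fold change was 0.10 (95% interval -0.44 to 0.64) for OGD+MS-275 against OGD and 0.16 (-0.40 to 0.72) for OGD against Control. Of the miRNAs that share its seed, miR-25 had 841 to 1590 raw counts and miR-92b 59 to 134, both above the limit in all 12 lanes, and miR-92a, miR-363 and miR-367 exceeded it in 0 lanes. miR-25 had a log2 fold change of -0.29 for OGD+MS-275 against OGD, with an edgeR adjusted p of 0.288. The largest difference of miR-92b among the 4 comparisons was -0.35 for OGD against Control, with an edgeR adjusted p of 0.747.

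**Figure D3:**
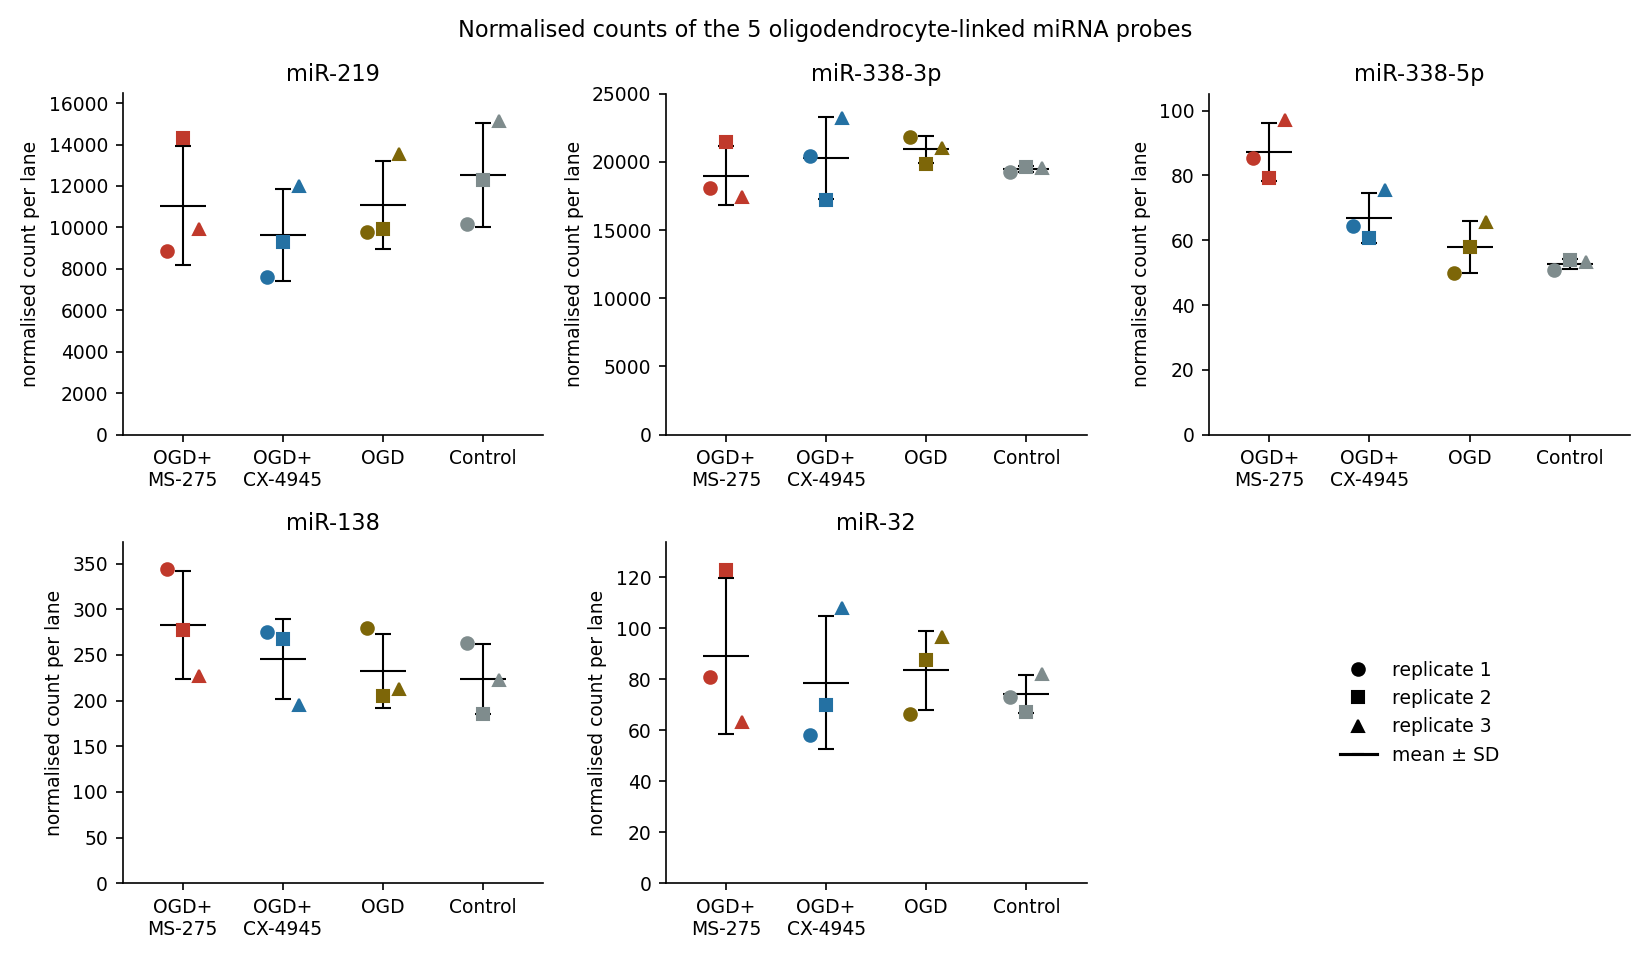
Normalised count per lane (vertical axis, from 0) of each probe in the 4 groups, with symbols for replicates and bars for the mean ± SD of 3 lanes. miR-338-5p is the only probe whose 3 OGD+MS-275 lanes, 79.2 to 97.0, lie above every other lane, and miR-219 and miR-32 spread widely within the groups.

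As a list, the 5 probes had a median log2 fold change of 0.10 for OGD+MS-275 against OGD, where the median over the 217 tested probes was 0.03. The medians were 0.19 for the 5 probes and -0.02 for all probes in OGD+MS-275 against OGD+CX-4945. They were -0.04 and 0.03 in OGD+CX-4945 against OGD, and 0.10 and 0.01 in OGD against Control.

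Since both strands of miR-338 leave the same hairpin, their counts were set against each other within each lane, which removes lane depth. The comparison was set up with the higher miR-338-5p under MS-275 already known, so it is not independent evidence of that difference. The count of miR-338-3p was 212, 271 and 180 times that of miR-338-5p in the OGD+MS-275 lanes and 317, 282 and 307 times in OGD+CX-4945. It was 438, 343 and 320 times in OGD, and 379, 363 and 367 times in Control. All OGD+MS-275 lanes were below all OGD+CX-4945 lanes, which were below all OGD lanes, and OGD spread across the range of Control. These are ratios of barcode counts from probes of unequal efficiency, so they can be set side by side between groups but give no ratio of molecules.

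On the log2 scale the strand ratio averaged 7.77 ± 0.30 in OGD+MS-275, 8.24 ± 0.09 in OGD+CX-4945, 8.51 ± 0.24 in OGD and 8.53 ± 0.03 in Control (SD, n = 3 each). The difference was -0.74 for OGD+MS-275 against OGD, -0.47 for OGD+MS-275 against OGD+CX-4945 and -0.27 for OGD+CX-4945 against OGD. Each had a two-sided exact permutation p of 0.10, the smallest that 3 lanes against 3 allow, and 0.267 after Benjamini-Hochberg adjustment over the 8 ratio comparisons made. OGD against Control differed by -0.02, with an exact permutation p of 1. Over the 4 groups together, 78.7% of the variance of the log2 ratio lay between groups, with an exact permutation p of 0.00247 over all 369600 assignments of lanes to groups. The mean ligation counts of the groups ran in the reverse order, at 3020 in OGD+MS-275, 2749 in OGD+CX-4945, 1761 in OGD and 1726 in Control. This p therefore cannot tell the agents from ligation yield, and the part of ligation in the ratio was not tested.

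Because miR-338-5p stood near the background, the ratio moved with the handling of it. With the median of the negative controls subtracted from each count, the difference was -1.24 for OGD+MS-275 against OGD and -0.62 for OGD+MS-275 against OGD+CX-4945, and neither pair of groups overlapped. For OGD+CX-4945 against OGD it was -0.62 and the groups overlapped, and for OGD against Control its sign turned, at 0.19.

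miR-219 and miR-338-3p, the most abundant of the 5, were compared in the same way. The count of miR-219 was 0.491, 0.667 and 0.570 times that of miR-338-3p in OGD+MS-275, 0.373, 0.541 and 0.519 times in OGD+CX-4945, 0.449, 0.498 and 0.643 times in OGD, and 0.527, 0.625 and 0.774 times in Control. The groups overlapped in all 4 comparisons. The log2 differences were 0.13 for OGD+MS-275 against OGD, 0.28 for OGD+MS-275 against OGD+CX-4945, -0.15 for OGD+CX-4945 against OGD and -0.28 for OGD against Control. Their exact permutation p-values were between 0.3 and 0.6, and between 0.6 and 0.686 after adjustment over the 8 ratio comparisons.

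**Figure D4:**
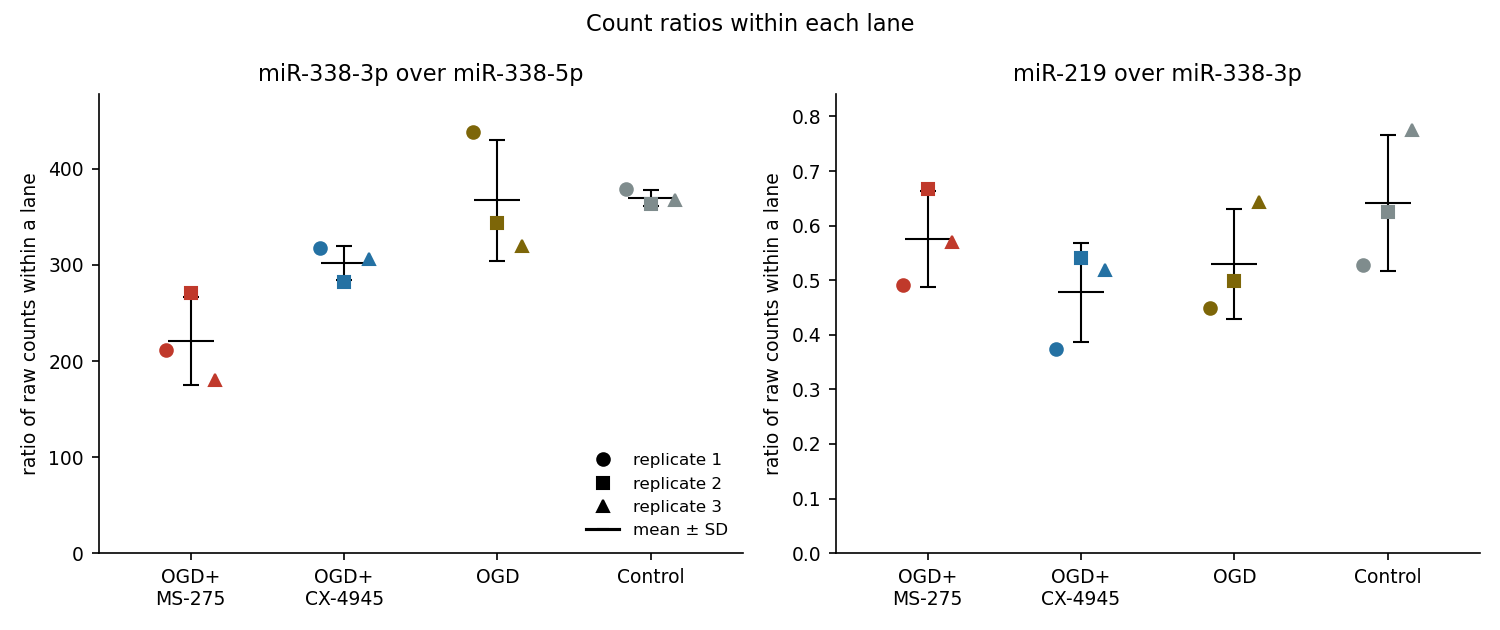
Ratio of raw counts within each lane (vertical axes, from 0) for miR-338-3p over miR-338-5p and for miR-219 over miR-338-3p, by group, with symbols for replicates and bars for the mean ± SD of the 3 ratios. The strand ratio of miR-338 is 180 to 271 in OGD+MS-275 and 282 or more in all other lanes, while the ratio of miR-219 to miR-338-3p overlaps between all groups.

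The 5 probes differed in how far replicate lanes spread. The SD within groups on the log2 scale was 0.31 for miR-219, which ranked 43rd of 217 and 4th among the 48 probes with a mean normalised count of at least 1000. It was 0.37 for miR-32, which ranked 24th, and 0.27 for miR-138, which ranked 83rd. Both strands of miR-338 had observed spreads below the median of 0.24 over all tested probes, at 0.14 for miR-338-3p and 0.15 for miR-338-5p. For miR-219 the spread was far above its counting error of 0.014. For miR-338-5p it was below its counting error of 0.19, so its small spread in these few lanes does not show a steady level.

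Within groups, miR-219 was higher in lanes with more ligation signal. A coefficient for the log2 ligation count, fitted across all probes with a mean per group, was 0.48 for miR-219 (95% interval 0.17 to 0.78) and passed the threshold with an edgeR adjusted p of 0.0469. Of the 5 probes it was the only one called, 1 of 5, where 11.5% of all tested probes were called. The coefficient was 0.42 for miR-32 (edgeR adjusted p of 0.228), 0.13 for miR-338-5p, 0.08 for miR-338-3p and -0.12 for miR-138. The lane with the highest ligation count was also the highest lane of its group for miR-219 and for miR-32 in 3 of 4 groups. The exception in both was OGD+MS-275, whose ligation counts differed little and whose replicate 2 was highest.

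The call for miR-219 was fragile. It was lost in 9 of the 12 fits that each left out 1 lane, where the coefficient ran from 0.42 to 0.58 and the edgeR adjusted p from 0.00974 to 0.190. The fits that kept it left out OGD replicate 1 or, in OGD+MS-275, replicate 1 or 2. With RLE in place of TMM factors the adjusted p was 0.0576. The sample titles carry numbers that fall into 3 sets, and what a set marks is not given. The highest lane of miR-219 and of miR-32 was the lane of the third set in each of the 3 groups that hold one, so ligation signal and set cannot be told apart there. A test of the sets gave edgeR adjusted p-values of 0.120 for miR-219, 0.159 for miR-138 and 0.265 for miR-32.

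**Figure D5:**
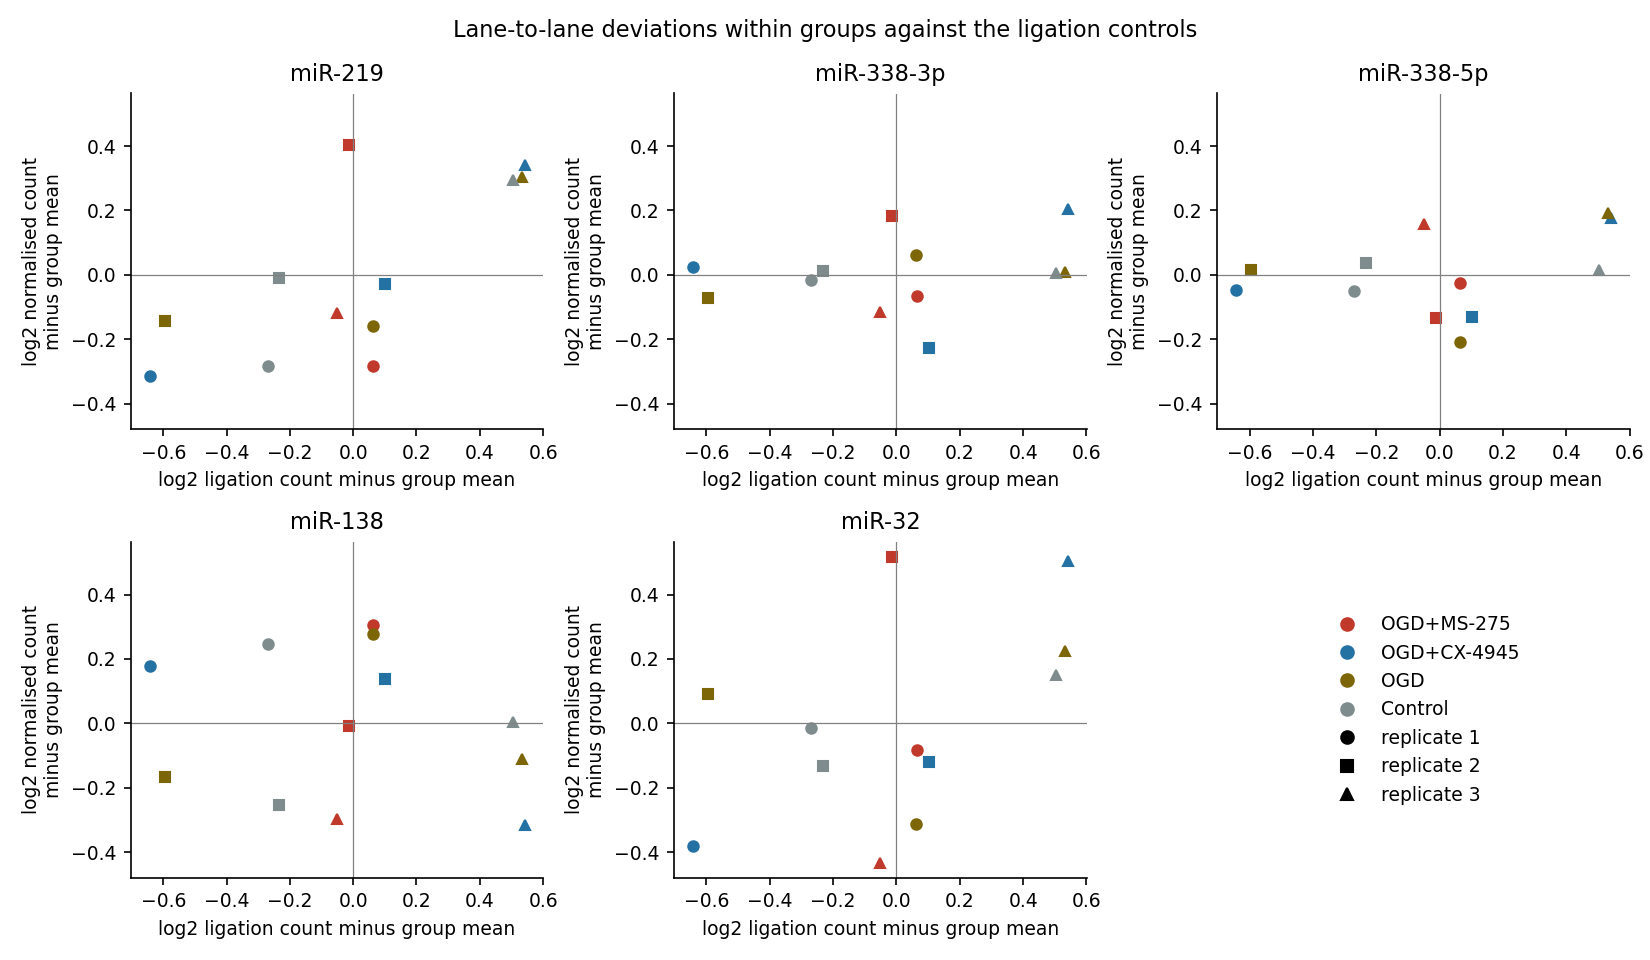
Each lane's log2 normalised count minus its group mean (vertical axis) against its log2 ligation count minus its group mean (horizontal axis) for the 5 probes, with colours for groups and symbols for replicates. miR-219 and miR-32 are high in replicate 3 of OGD+CX-4945, OGD and Control, the lanes with the most ligation signal in those groups, and in OGD+MS-275 replicate 2, while both strands of miR-338 spread little.

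The 5 probes did not move as 1 group across lanes. With group means removed, the log2 normalised counts of miR-219 and miR-32 had a Pearson correlation of 0.80 over the 12 lanes, those of miR-219 and miR-338-3p of 0.53 and those of miR-219 and miR-138 of -0.51. The strands of miR-338 had a correlation of 0.08 with group means removed and of -0.19 without. miR-338-5p and miR-138 had -0.75 with group means removed and 0.18 without. The spread of miR-338-5p within groups, 0.15, was below its counting error of 0.19. Its correlations with group means removed therefore cannot show whether it moves with or apart from other probes. All these correlations describe 12 lanes in which all probes share the lane's ligation, depth and scaling.

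By the same measure, the tested probes most like miR-219 over the 12 lanes were miR-142-3p at 0.83, miR-100 at 0.77 and miR-92b at 0.75. With group means removed they were miR-23b and miR-26b at 0.97 each and miR-100 at 0.96. Those most like miR-338-3p were miR-350 at 0.90, miR-152 at 0.76 and let-7g at 0.75, and with group means removed miR-350 at 0.95, miR-152 at 0.94 and let-7b at 0.83. miR-338-3p thus kept its first 2 partners and miR-219 only miR-100 once the groups were levelled.

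miR-338-5p was most like miR-2134 at 0.85, miR-2133 at 0.84 and miR-2140 at 0.83, and with group means removed like miR-669o at 0.83, miR-1900 at 0.68 and miR-876-3p at 0.64. Of these, miR-2133, miR-669o and miR-876-3p averaged only 46.7, 47.5 and 42.5 normalised counts, near the background like miR-338-5p itself. The part of shared background in these correlations was not tested. miR-2134, miR-2133 and miR-2140 had higher means in OGD+MS-275 than in OGD, but only miR-2133 passed the threshold. For OGD+MS-275 against OGD, miR-2133 had a log2 fold change of 1.44 and was the probe called by edgeR, with an adjusted p of 0.0264, miR-2134 had 1.71 (edgeR adjusted p of 0.173) and miR-2140 1.03 (edgeR adjusted p of 0.224). The ligation coefficients of miR-2133, miR-2134 and miR-2140 were 0.61, 1.09 and 0.90, with edgeR adjusted p-values of 0.101, 0.0673 and 0.0871. The probes most like miR-338-5p, with or without group means, included none of those most like miR-338-3p. miR-138 was most like miR-19b at 0.82, miR-130a at 0.81 and miR-181c at 0.81, and with group means removed like miR-181c at 0.82, miR-434-5p at 0.81 and miR-1944 at 0.78. miR-32 was most like miR-100 at 0.84, miR-27b at 0.83 and miR-26b at 0.81, and with group means removed like miR-27b and miR-185 at 0.89 each and miR-100 at 0.88. miR-100 was thus among the nearest probes of both miR-219 and miR-32.

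A list of 16 further miRNAs with reported roles in oligodendrocyte differentiation had 12 tested members. 0 of the 12 passed the threshold in each of the 4 comparisons, by edgeR's test over all probes. At an unadjusted edgeR p under 0.05, 3 of the 12 passed in OGD+MS-275 against OGD, where 20.7% of all tested probes did. DESeq2 called 1 of the 7 to which it gave an adjusted p there, miR-27a, and limma-voom 0 of 12. Their median log2 fold change was 0.03 for OGD+MS-275 against OGD, with 6 of 12 higher, and 0.05 for OGD against Control, with 8 of 12 higher. The most abundant were miR-9, at 8167 ± 294 normalised counts in OGD+MS-275 and 7683 ± 364 in OGD, and miR-27a, at 5437 ± 333 in OGD+MS-275 and 8276 ± 1786 in OGD (SD, n = 3 each). miR-27a had a log2 fold change of -0.61 with an edgeR adjusted p of 0.149. Its ligation coefficient was -0.46 (edgeR adjusted p of 0.00733). Every OGD+MS-275 lane had more ligation signal than every OGD lane, and the part of ligation in the difference of miR-27a was not tested.

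The nerves also carried miRNAs of other cells. All 5 neuronal, 2 endothelial, 2 smooth muscle, 4 microglial and leukocyte and 2 erythroid markers were tested, and so were 3 of 4 of skeletal muscle and 1 of 5 of pigment epithelium and retina. None of these lists had a member past the threshold of edgeR's test in the 4 comparisons, nor in limma-voom, nor in DESeq2 among the probes to which it gave an adjusted p. In the test of any difference among the 4 groups, DESeq2 called 1 of the 2 erythroid markers. limma-voom called 0 of them there, and the edgeR adjusted p-values were 0.133 for miR-144 and 0.254 for miR-451. In OGD+MS-275 against OGD, an unadjusted edgeR p under 0.05 was found for 3 neuronal probes, 1 endothelial, 1 microglial and leukocyte, and for miR-204 of the pigment epithelium. That bar was passed by 20.7% of all tested probes. The neuronal miR-153, miR-129-3p and miR-218 were higher, with log2 fold changes of 0.85, 0.54 and 0.50, while miR-124 and miR-128 had -0.06 and -0.38. The ligation coefficient of miR-129-3p was 0.51 (edgeR adjusted p of 0.0257). miR-126-3p, miR-150 and miR-204 were lower. The summed normalised count of the neuronal markers, led by miR-124 and miR-129-3p, was 10059 to 11093 in OGD+MS-275, 8967 to 11504 in OGD+CX-4945, 9358 to 10642 in OGD and 9872 to 10219 in Control. That of the endothelial miR-126-3p and miR-126-5p was 9798 to 10178 in OGD+MS-275, 9748 to 12677 in OGD+CX-4945, 11209 to 13181 in OGD and 11402 to 13946 in Control. The microglial and leukocyte markers, led by miR-150 and miR-142-3p, summed to 2272 to 2644 in OGD+MS-275, 2504 to 3141 in OGD+CX-4945, 2824 to 3668 in OGD and 2774 to 3429 in Control. The endothelial and the microglial and leukocyte sums were thus lower in every OGD+MS-275 lane than in every OGD lane, and their part in the values of the 5 probes was not tested. The endothelial sum was mostly miR-126-3p, whose log2 fold change for OGD+MS-275 against OGD was -0.33. miR-126-5p went the other way, at 0.10. Of the microglial and leukocyte probes, 0 of 4 were higher in OGD+MS-275. miR-126-3p and miR-150, the most abundant of each list, had ligation coefficients of -0.28 and -0.38 (edgeR adjusted p of 0.0426 and 0.0257). The coefficient was above 0 for 1 of 2 endothelial and 1 of 4 microglial and leukocyte probes. Every OGD+MS-275 lane also had more ligation signal than every OGD lane, and the part of ligation in these sums was not tested. The smooth muscle markers miR-145, which also stands in the list of 16, and miR-143 summed to 1445 to 1916 in OGD+MS-275, 1235 to 1610 in OGD+CX-4945, 1208 to 1448 in OGD and 1220 to 2374 in Control. The erythroid markers miR-451 and miR-144 summed to 867 to 1099 in OGD+MS-275, 725 to 1111 in OGD+CX-4945, 837 to 1016 in OGD and 1283 to 1401 in Control. Every OGD lane was thus below every Control lane in the erythroid sum, with log2 fold changes of -0.48 for miR-451 and -0.58 for miR-144, edgeR adjusted p-values of 0.484 and 0.430 and unadjusted p-values under 0.05 for both. The part of this in the values of the 5 probes for OGD against Control was not tested. The retinal miR-182, miR-183 and miR-96 and the pigment epithelium's miR-211 exceeded the background limit in 0 lanes, while miR-204 had 3773 to 7336 raw counts. The skeletal muscle markers miR-1 and miR-206 stayed at or below 115 raw counts. For comparison, the 5 oligodendrocyte-linked probes summed to 27457 to 36233 in OGD+MS-275, 26856 to 35573 in OGD+CX-4945, 30125 to 34932 in OGD and 29780 to 35061 in Control.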

How the data were processed

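Small RNA of 12 mouse optic nerve samples was profiled on an nCounter miRNA panel, per the labels. The deposited raw table holds the authors' barcode count per probe and lane, and 0 further columns of samples. A second deposited table holds a processed signal whose making is not given in the sources used here. It served as an alternative only, on a log2(value + 1) scale. Groups came from the agent label.

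Counts were tested with edgeR 4.0.16 in R 4.3.3 (quasi-likelihood, robust, TMM factors) in 1 fit of the 12 lanes with a mean per group. Benjamini-Hochberg adjustment ran over the 217 probes above a lane's background limit in at least 3 lanes. The common biological coefficient of variation was 16.6%. Total miRNA counts were 255154 to 542933 per lane, and a barcode count carries no amplification. The same fit with the log2 ligation count added gave the ligation coefficients. Ratios within a lane were compared with exact permutation tests. Code was tested on simulated data.

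The text names all 5 probes, the 3 most correlated tested probes with and without group means, the probes sharing a seed, and of each further list those that passed and the 2 most abundant. The 5 probes, the lists and the tests were chosen with earlier results of these data known. Alternatives were other scalings, filters, background subtraction, DESeq2 1.42.0, limma 3.58.1, covariates, title-number sets and leaving out each lane. Sequences and gene spans are RefSeq's, build GRCm38.p6. All 5 probe names matched, 3 of them after adding the strand.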

Additional observations from a re-analysis of the deposited data

How the results depend on the processing

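Across the alternatives, most fold changes of the 5 probes kept their direction, and those that turned are given here. The median of all tested probes for OGD+MS-275 against OGD was 0.54 when lanes were scaled by the mRNA probes, 0.47 by the hybridisation controls, -0.42 by the ligation controls and 0.71 in the deposited signal. miR-338-5p stood 0.55, 0.54, 0.58 and 0.89 above those medians. Scaling moves all probes of a lane alike, so the distances under the scalings were nearly fixed in advance and do not test the difference. The other comparisons shifted by -0.33 to 0.49.

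For OGD+MS-275 against OGD, miR-219 turned to 0.48 (mRNA scaling), 0.44 (hybridisation scaling), 0.53 (deposited signal), 0.11 (no filter) and 0.011 (probes above the limit in all 12 lanes), and miR-338-3p to 0.33, 0.30 and 0.40 in the first 3 of these. With ligation scaling miR-138 was -0.19 and miR-32 -0.32, and with the ligation covariate miR-32 was -0.23. For OGD+MS-275 against OGD+CX-4945, miR-338-3p was 0.16 with mRNA scaling and 0.079 in the deposited signal. For OGD+CX-4945 against OGD, miR-219, miR-338-3p and miR-32 were 0.044, 0.17 and 0.22 with mRNA scaling, 0.19, 0.32 and 0.36 with hybridisation scaling and 0.17, 0.32 and 0.34 in the deposited signal. There miR-338-3p and miR-32 were 0.024 and 0.020 without a filter, and miR-338-5p and miR-138 were -0.053 and -0.21 with ligation scaling. For OGD against Control, mRNA scaling gave miR-338-5p -0.0063, miR-138 -0.026 and miR-32 -0.0085, hybridisation scaling gave miR-138 -0.0075, and the deposited signal gave miR-338-3p -0.17, miR-338-5p -0.34, miR-138 -0.25 and miR-32 -0.19. Without a filter the ligation coefficient of miR-138 was 0.033. The cause of these changes was not tested beyond the shift of the median.

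With lanes left out one at a time, fold changes that changed sign ran from -0.23 to 0.17 for miR-219 and from -0.20 to 0.29 for miR-32 in OGD+MS-275 against OGD. In OGD+MS-275 against OGD+CX-4945 they ran from -0.036 to 0.44 for miR-219, from -0.20 to 0.068 for miR-338-3p and from -0.14 to 0.54 for miR-32. In OGD+CX-4945 against OGD they ran from -0.19 to 0.061 for miR-338-3p, from -0.019 to 0.23 for miR-138 and from -0.42 to 0.11 for miR-32, and in OGD against Control from -0.10 to 0.19 for miR-138. The ligation coefficient ran from -0.033 to 0.14 for miR-338-3p and from -0.28 to 0.041 for miR-138, and the number of the 5 probes called for it from 0 to 1. It was 0 with RLE factors. The log2 strand ratio for OGD against Control was 0.19 with the median of the negative controls subtracted, 0.37 with their mean subtracted and 0.19 in the deposited signal, and -0.16 to 0.069 with lanes left out. The log2 ratio of miR-219 to miR-338-3p for OGD+CX-4945 against OGD was -0.26 to 0.016 with lanes left out.

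The sets of title numbers were tried as a replicate block. Deviations of lanes of the same set correlated above 0.1 in 12 of 18 pairs (median 0.31). Those of different sets did so in 11 of 36 (median -0.17). Lanes of the same set were thus more alike in the median, but what a set marks is not given. The main fit did not use the sets, and whether they pair the samples was not settled. With the block of 3 sets, 1 of the 5 probes was called for OGD+MS-275 against OGD and 1 in the 4-group test, miR-338-5p in both (log2 fold change 0.69, edgeR adjusted p = 0.0245 in the first), and 24 and 18 of all 217 probes were called. miR-219 was then 0.18, and 0.094 with a block of 2 sets. With 2 sets the adjusted p of miR-338-5p was 0.0838, and with 3 sets and the ligation covariate it was 0.804, within a range of 0.0245 to 0.804 over the alternatives with a value. That last block called 0 probes for the ligation coefficient, which was -0.083 for miR-338-3p, -0.22 for miR-338-5p, 0.31 for miR-138 and -0.048 for miR-32. It also gave miR-138 -0.20 in OGD+MS-275 against OGD, -0.080 against OGD+CX-4945 and -0.12 for OGD+CX-4945 against OGD, where miR-338-3p was 0.00061. Over all probes, OGD+MS-275 against OGD had 1 call in edgeR's test, 3 in DESeq2 among the 62 probes to which it gave an adjusted p, 7 with mRNA scaling and 5 with hybridisation scaling, and the 4-group test had 1 and, in DESeq2, 7. Precision is limited by 3 lanes a group and, for miR-338-5p and miR-32, by counts near the background.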
